A study of Mus musculus with 15 samples.

Results

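The ADAM, ADAMTS and ADAMTS-like genes encode a superfamily of metalloproteases and their non-catalytic relatives. They were taken here by symbol, as every gene whose name begins with Adam, Adamts or Adamtsl followed by a number, which gave 58 of the 55487 genes in the count table. Of these, 34 were ADAM, 19 ADAMTS and 5 ADAMTS-like genes. At least 1 count was present for 40 of them in any of the 6 libraries, and 18 were at 0 in all 6. The 29 genes with a mean of at least 0.5 CPM (a gene's counts over the library's total gene counts, multiplied by 1e+06) over the 6 libraries are described below, 13 of them ADAM, 13 ADAMTS and 3 ADAMTS-like. The nearest gene above that level was Adam22 at 0.517 CPM, and the nearest below it was Adamtsl1 at 0.337 CPM. The same level was reached by 14382 genes in all.

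ADAM proteins span the cell membrane and carry a metalloprotease and a disintegrin domain outside the cell. Those with an intact active site release the outer part of other membrane proteins, a step called ectodomain shedding, which frees growth factors and cytokines and starts Notch signalling. ADAMTS proteins are secreted, carry thrombospondin repeats and cut components of the extracellular matrix such as proteoglycans and procollagens, while ADAMTS-like proteins keep the repeats and lack the protease domain. Fibroblasts build and turn over connective tissue matrix and are known to make members of all 3 branches.

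PolyA RNA had been sequenced from TTF (tail-tip fibroblast) cells of female hybrid mice with 1 C57BL6 and 1 CAST parent. The analysed libraries were 3 with the genotype SIRT7-KO, called KO 2, KO 9 and KO 22 after the numbers in the column names, which match 3 line titles, and 3 with the genotype S7WT_TTF, called WT 1, WT 2 and WT 3. Both groups share sex, cell type and hybrid background, with no treatment or time given. An earlier set of KO libraries has no line numbers, so the KO columns may hold that set instead. The WT titles follow the naming of that earlier set. Under the matching used here, genotype and set of libraries therefore coincide, and their effects cannot be told apart. SIRT7 is a nuclear sirtuin, and the study's title names dosage compensation of the female X chromosome. The labels do not say whether a KO line is 1 clone, nor whether the WT libraries were grown or collected separately. The p-values therefore measure the spread between these 6 libraries, and part of it may be technical. Another 9 labelled libraries were not analysed here.

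Total gene counts lay between 61065582 and 61506413 per library, and 37.0% to 37.9% of the counts in the split-read table carried a parental genome. Sirt7 itself had 512, 694 and 787 counts in KO 2, KO 9 and KO 22, against 833, 1107 and 598 counts in WT 1, WT 2 and WT 3. The groups overlapped, so the RNA of the targeted gene did not separate them and the genotypes rest on the labels (log2 fold change -0.31, SE 0.27, edgeR adjusted p = 0.515). The 10 fibroblast markers examined summed to between 23472 and 30427 CPM in KO lines and between 14418 and 14605 CPM in WT libraries. Single markers varied between the KO lines, such as Thy1 at 21.6, 0.195 and 71.5 CPM in KO 2, KO 9 and KO 22, against 98.6 to 101.0 CPM in WT libraries. Pdgfra was at 9.46, 11.4 and 81.3 CPM in the same KO lines, against 68.6 to 76.0 CPM in WT libraries. The 4 epithelial markers summed to at most 0.0819 CPM in KO lines and 0.0813 CPM in WT libraries, and the endothelial Cdh5, the macrophage Adgre1 and the myogenic Pax7 and Myod1 were at 0 in all 6 libraries. Endothelial markers, mostly Tek, summed to between 0.752 and 5.56 CPM in KO lines and between 2.28 and 2.64 CPM in WT libraries. Skeletal muscle markers, mostly Des, summed to between 1.06 and 1.33 CPM in KO lines and between 0.782 and 0.983 CPM in WT libraries. Immune markers summed to between 2.65 and 6.22 CPM in KO lines and between 4.61 and 4.99 CPM in WT libraries. Cartilage, adipocyte and Schwann cell markers stayed at or below 10.5 CPM in KO lines and 6.67 CPM in WT libraries, per list. The 5 smooth muscle and pericyte markers summed to between 10163 and 15339 CPM in KO lines and between 8782 and 9629 CPM in WT libraries, mostly Acta2 and Tagln, and Myh11 was the 1 of them that rose (log2 fold change 2.39, SE 0.43, edgeR adjusted p = 0.0312). The part of these markers in the results below was not tested. In bulk RNA, fewer cells of a type and less RNA per cell cannot be told apart.

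Together the 58 genes held 1427, 1685 and 1851 CPM in KO 2, KO 9 and KO 22, against 1094, 1116 and 1115 CPM in WT 1, WT 2 and WT 3. The summed level was therefore higher in each KO line than in any WT library. Of the 29 described genes, all of which were tested, 4 rose in KO lines (Adamts1, Adamts5, Adamts2 and Adam19) and 1 fell (Adam33), by edgeR's quasi-likelihood test at an adjusted p under 0.05. Over all 16678 genes tested, 6.73% passed the same test, 3.54% upward and 3.19% downward. At an unadjusted p under 0.05, 11 of the 29 were higher and 1 lower, but the share of all tested genes at that level was not taken. The CPM values of the groups did not overlap for 9 of the 29, with KO higher for 8 and lower for 1, where the same held for 35.9% of all tested genes (15.7% higher and 20.2% lower). With directions pooled, the share of separated genes among the 29 was thus near that of the table. By direction it was not, as most of the 9 were higher in KO while the table held more genes lower. Leaving out WT 1, WT 2 or WT 3 left 51, 45 and 50 calls over all genes. Among the 29, Adamts5 kept its call in each of those fits and Adam33 in the one without WT 3. Some genes below are called by edgeR only without 1 KO line, and that line was picked after the values were seen. Leaving out a line that lies apart narrows the spread of the KO lines. The share of all genes called in such a fit is not set beside it. The median log2 fold change was 0.40 over the 29 genes and 0.02 over all tested genes. Adam33 reached the 0.5 CPM level only through the WT libraries, and Adam22 only through the KO lines.

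**Figure D1:**
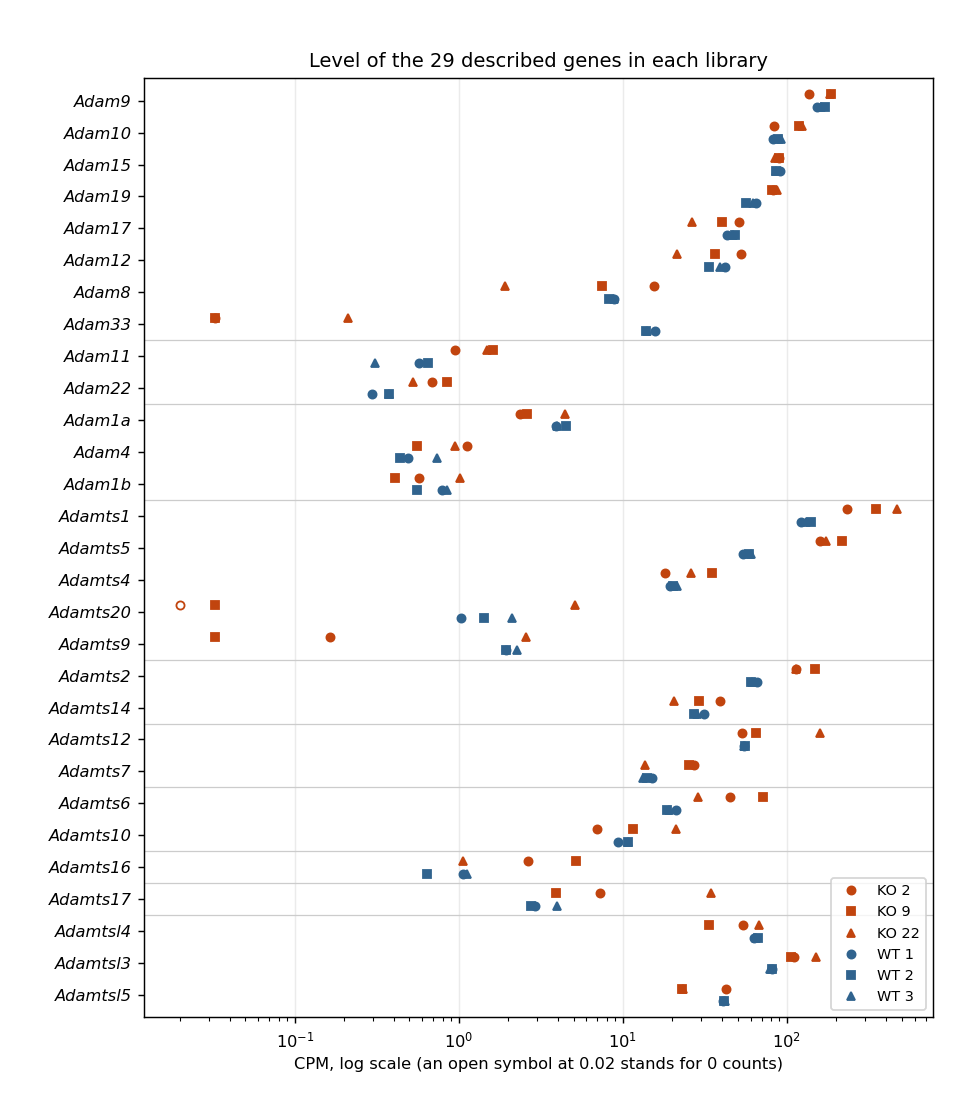
CPM of the 29 described genes on a log axis, one row per gene, with KO 2, KO 9 and KO 22 in orange above WT 1, WT 2 and WT 3 in blue. Lines divide the rows by the proteins' roles, from membrane ADAMs at the top to ADAMTS-like genes at the bottom. Adam33 lies at or below 0.212 CPM in KO lines and at 13.8 CPM or more in WT libraries, and the KO points of most genes are spread more widely than the WT points.

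The KO lines differed more among themselves than the WT libraries did for most of these genes. The coefficient of variation of CPM was larger in KO than in WT for 26 of the 29, with a median of 33.5% in KO and 6.68% in WT. The exceptions were Adam15, Adam19 and Adam11. Over all tested genes, edgeR's common biological coefficient of variation was 0.378 in KO lines and 0.135 in WT libraries. The wider spread of the KO lines was thus not particular to these genes. By this coefficient, the KO lines were the more widely spread group for 4 of the 5 called genes, all but Adam19. For Adam33 the coefficient rests on 2, 2 and 13 KO counts, and its SD was 0.104 CPM in KO lines and 1.02 CPM in WT libraries.

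**Figure D2:**
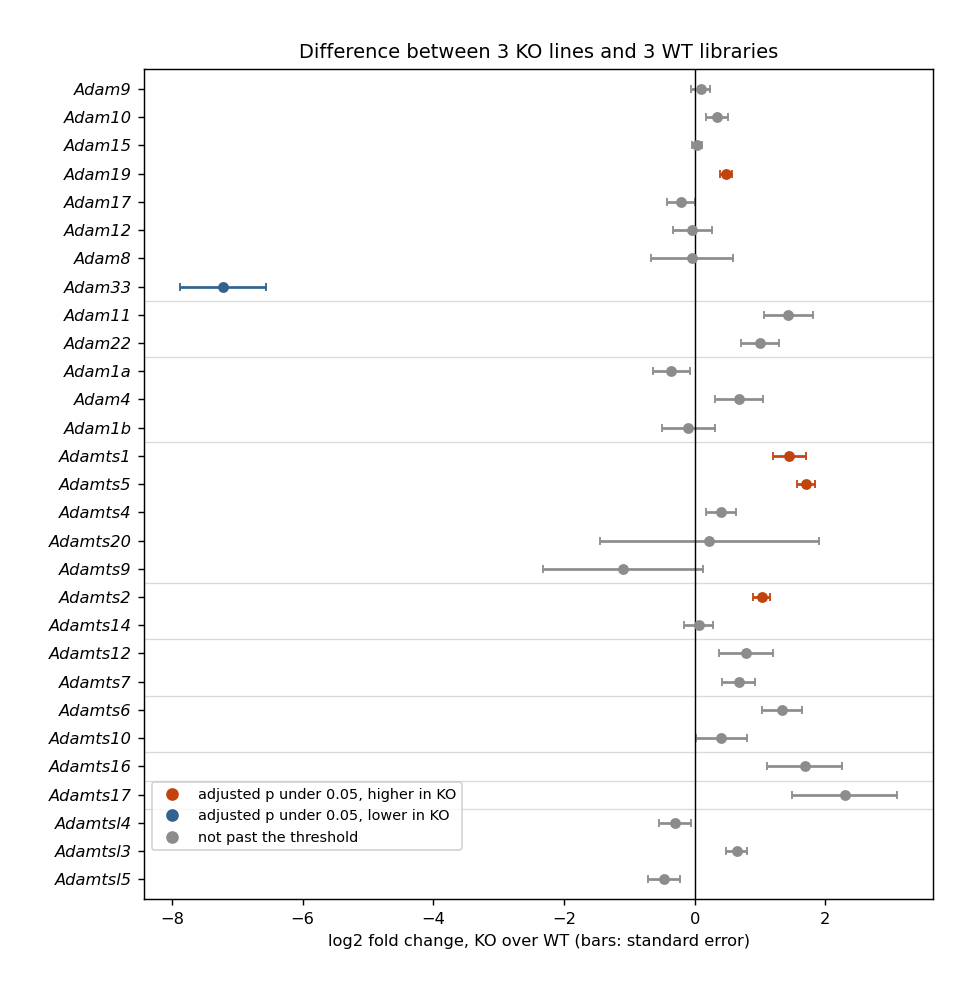
Log2 fold change of KO lines over WT libraries for the 29 described genes in the same order, with bars for the standard error. Orange points rose and the blue point fell at an edgeR adjusted p under 0.05, and grey points did not pass. Adamts1, Adamts5, Adamts2 and Adam19 lie to the right of 0 with short bars, and Adam33 lies far to the left.

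The promoters of Adamts1, Adamts2 and Adam19, 3 of the 4 members that rose, are shown because their start regions differ in base composition. Adamts5, the fourth, is named only. Of the 29 described genes 18 were matched in RefSeq's promoter table (GRCm38.p6). Each sequence is the 250 bases before the RefSeq transcript start, 5′ to 3′ on the gene's strand, with CG dinucleotides in capitals. The windows are chr16:85803114-85803363 (minus strand) for Adamts1, chr11:50601835-50602084 (plus strand) for Adamts2 and chr11:46055734-46055983 (plus strand) for Adam19, the one of its 3 windows that lies next to the annotated gene start.
Adamts1: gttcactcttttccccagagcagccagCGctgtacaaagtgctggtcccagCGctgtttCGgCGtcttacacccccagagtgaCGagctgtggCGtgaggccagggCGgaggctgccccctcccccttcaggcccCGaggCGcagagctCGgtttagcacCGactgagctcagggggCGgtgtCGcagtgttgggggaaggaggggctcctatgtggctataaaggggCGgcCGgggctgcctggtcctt
Adamts2: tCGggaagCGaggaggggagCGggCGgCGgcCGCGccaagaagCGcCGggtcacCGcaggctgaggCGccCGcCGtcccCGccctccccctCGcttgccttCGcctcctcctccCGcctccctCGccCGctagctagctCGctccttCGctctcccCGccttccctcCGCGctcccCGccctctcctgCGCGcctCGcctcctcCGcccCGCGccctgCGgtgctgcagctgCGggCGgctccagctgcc
Adam19: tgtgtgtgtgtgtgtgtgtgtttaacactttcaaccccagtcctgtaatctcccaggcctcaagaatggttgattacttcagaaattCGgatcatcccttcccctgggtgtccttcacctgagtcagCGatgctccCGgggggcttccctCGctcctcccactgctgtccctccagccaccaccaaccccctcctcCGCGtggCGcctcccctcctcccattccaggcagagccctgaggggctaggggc
The Adamts1 window held 15 CG dinucleotides, the Adamts2 window 34 and the Adam19 window 7, against a median of 6 over 32851 windows in the table. The letters TATAAA, searched on both strands, were present in the Adamts1 window and in 12.4% of all windows. The letters TGAGTCA, an AP-1 motif searched in the same way, were present in the Adam19 window and in 4.46% of all windows. Of the 20 windows of the described genes, 1 held TATAAA and 1 held TGAGTCA.

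Among the proteoglycanases, the ADAMTS enzymes that cut aggrecan and versican, Adamts1 and Adamts5 rose in KO lines, and Adamts4, Adamts9 and Adamts20 did not pass the test. Adamts1 (ENSMUSG00000022893, chr16:85793827-85803113 on GRCm38) was the described gene with the highest level per length, with a mean over the 6 libraries of 45.4 CPM per kb of exon. It had 231, 347 and 471 CPM in KO 2, KO 9 and KO 22, against 123, 140 and 131 CPM in WT 1, WT 2 and WT 3. Each KO line lay above each WT library, and KO 22 had the highest value. The mean was 349.6 ± 119.9 CPM in KO lines and 131 ± 8.81 CPM in WT libraries (SD, n = 3 each), a 2.73-fold difference (log2 fold change 1.45, SE 0.26, edgeR adjusted p = 0.0307). The call was lost without KO 9 (adjusted p = 0.0534), without WT 1, WT 2 or WT 3 (0.158, 0.140 and 0.152), when genes with low counts were not removed (0.0645) and once chromosome medians were subtracted (0.0510).

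Adamts5 (ENSMUSG00000022894, chr16:85856173-85901828), which encodes the main aggrecanase of mouse cartilage, had 158, 216 and 173 CPM in KO 2, KO 9 and KO 22. It had 53.6, 58.4 and 60.2 CPM in WT 1, WT 2 and WT 3, so the groups lay well apart. The mean was 183 ± 30.1 CPM in KO lines and 57.4 ± 3.37 CPM in WT libraries (SD, n = 3 each), and the gene rose by 1.70 on the log2 scale (SE 0.14, edgeR adjusted p = 0.00365). Of the 5 calls among the 29 genes, this was the 1 that held without each of the 6 libraries in turn. Nearly all reads of Adamts1, and all those of Adamts5, were assigned by the authors' quantification to a single protein-coding transcript in each library.

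Adamts1 and Adamts5 are neighbours on the same strand of chromosome 16, 53.1 kb apart, with no protein-coding gene annotated between them. Of the other 9 tested genes flanking the pair, App rose on one side (log2 fold change 0.79, SE 0.13, edgeR adjusted p = 0.0261) and Rwdd2b on the other (0.79, SE 0.15, adjusted p = 0.0372). The remaining 7 did not pass, among them Gabpa (0.18) and N6amt1 (0.56). The median log2 fold change over the 503 tested genes of chromosome 16 was 0.20. With chromosome medians taken out, the log2 fold change was 1.29 for Adamts1 and 1.53 for Adamts5 (edgeR adjusted p = 0.00563).

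**Figure D3:**
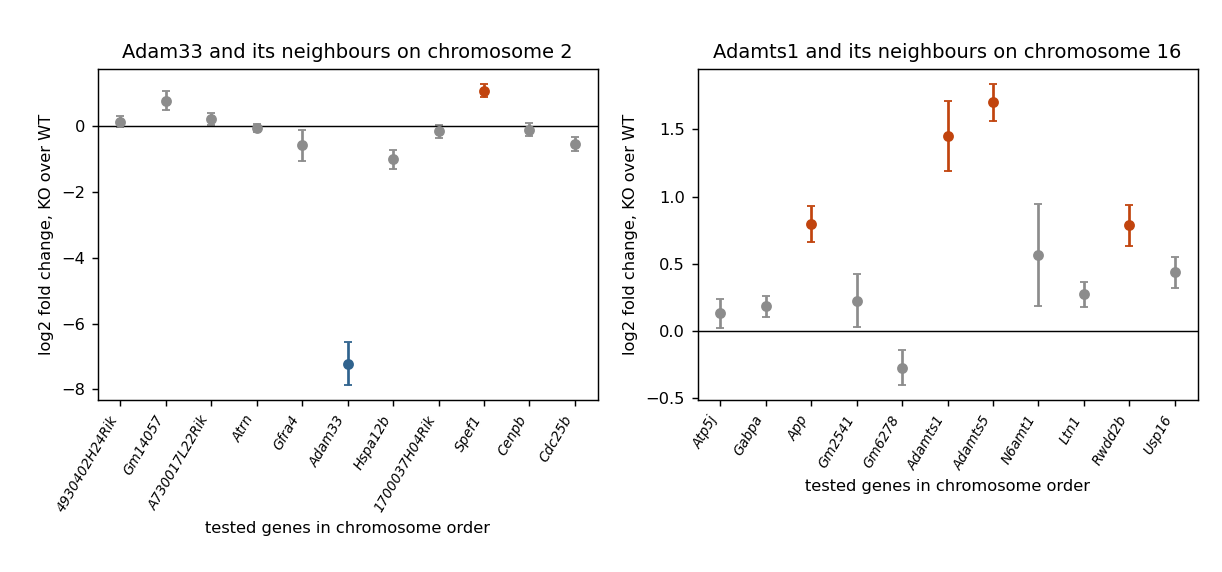
Log2 fold change of KO lines over WT libraries (bars, standard error) for Adam33 on chromosome 2 and for Adamts1 on chromosome 16 with the tested genes around them, in chromosome order and not to distance. Orange points rose and the blue point fell at an edgeR adjusted p under 0.05. Adam33 stands alone near -7 between neighbours within about 1 of 0, and Adamts1 and Adamts5 stand above the genes around them.

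Adamts4, also an aggrecanase, had 18.1, 34.7 and 26.0 CPM in KO 2, KO 9 and KO 22, against 19.3, 20.2 and 21.5 CPM in WT libraries, and the groups overlapped (edgeR adjusted p = 0.334). Adamts9 and Adamts20 were low and depended on the line. Adamts9 had 10, 2 and 158 counts in KO 2, KO 9 and KO 22, against 119, 119 and 139 counts in WT libraries. Adamts20 had 0, 2 and 312 counts in the same KO lines, against 63, 88 and 130 counts in WT libraries. For both genes KO 22 lay above the WT libraries while KO 2 and KO 9 were near 0, and neither passed the test over the 3 lines. Without KO 22, left out after its values were seen, the fitted log2 fold change was -4.35 for Adamts9 (edgeR adjusted p = 0.0118) and -6.36 for Adamts20 (adjusted p = 0.0109). Adamts15 was at 0 in all 6 libraries and Adamts8 had 2 counts in 1 WT library.

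The procollagen N-propeptidases remove the amino-terminal propeptide of fibrillar procollagens. Adamts2 (ENSMUSG00000036545, chr11:50602084-50807573) rose in KO lines, Adamts14 did not pass the test, and Adamts3 was at 0. Adamts2 had 113, 148 and 113 CPM in KO 2, KO 9 and KO 22, against 66.1, 60.5 and 61.5 CPM in WT 1, WT 2 and WT 3. The groups did not overlap, and the means of 125 ± 20.1 CPM in KO lines and 62.7 ± 2.97 CPM in WT libraries (SD, n = 3 each) differed by 1.02 on the log2 scale (SE 0.13, edgeR adjusted p = 0.0135). The call was lost without WT 1, WT 2 or WT 3 (adjusted p = 0.0938, 0.0989 and 0.104). Adamts14 had 39.3, 29.1 and 20.6 CPM in KO 2, KO 9 and KO 22, on both sides of the 27.2 to 31.0 CPM of the WT libraries (log2 fold change 0.06).

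The remaining ADAMTS genes with an active site had no member past the test, and several were set by 1 line. Adamts6, studied for its part in heart development in mice, had 45.2, 71.1 and 28.7 CPM in KO 2, KO 9 and KO 22, against 21.0, 18.5 and 19.1 CPM in WT libraries. Its groups did not overlap, and its log2 fold change of 1.33 (SE 0.31) missed the threshold (edgeR adjusted p = 0.0542). It was called by DESeq2 (adjusted p = 4.64e-04), by limma-voom (0.0334) and by edgeR without KO 22 (0.0115). Adamts10, whose human gene is mutated in Weill-Marchesani syndrome, overlapped between groups with means of 13.2 ± 7.27 CPM in KO lines and 10.3 ± 0.825 CPM in WT libraries (SD, n = 3 each). Adamts12, which with Adamts7 belongs to a branch known to cut the cartilage protein COMP, had 53.1, 64.6 and 159 CPM in KO 2, KO 9 and KO 22, against 54.7 to 55.2 CPM in WT libraries. Only the KO 22 value stood far from the WT range, and the test was not passed (adjusted p = 0.280). Adamts7 had 27.3, 25.3 and 13.6 CPM in KO 2, KO 9 and KO 22, against 13.3 to 15.0 CPM in WT libraries, so here KO 22 was the line within the WT range. Without KO 22, left out after its value was seen, Adamts7 was called at a log2 fold change of 0.91 (edgeR adjusted p = 0.00935). With KO 22 the value was 0.67 (adjusted p = 0.154). Adamts7 overlaps Tbc1d2b on the opposite strand in the annotation, and whether the counting used strand is not stated.

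Adamts17 showed the same dependence on KO 22 as Adamts12, with 7.27, 3.94 and 34.6 CPM in KO 2, KO 9 and KO 22, against 2.93, 2.74 and 3.98 CPM in WT libraries. KO 9 lay within the WT range, and the log2 fold change of 2.30 had an SE of 0.81 (edgeR adjusted p = 0.135; DESeq2 0.00846). Adamts16 had 162, 320 and 65 counts in KO 2, KO 9 and KO 22, against 65, 39 and 69 counts in WT libraries (adjusted p = 0.127). KO 22 had the same count as WT 1, and without KO 22 the gene was called at a log2 fold change of 2.08 (edgeR adjusted p = 0.0294). Adamts16 was also called by DESeq2 on all 6 libraries (adjusted p = 0.0316).

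Adamts16 nevertheless differed between the groups in the transcript to which its counts were assigned. In KO 2, KO 9 and KO 22, 162 of 162, 303 of 320 and 65 of 65 counts went to a transcript annotated as a target of nonsense-mediated decay. In WT 1, WT 2 and WT 3, 65 of 65, 38 of 39 and 69 of 69 counts went to a protein-coding transcript, which had 0, 7 and 0 counts in the KO lines. The groups thus had few counts on a shared transcript. Adamts16 was singled out after its transcript values were seen and no test was made. A transcript's count is estimated by sharing out reads that several transcripts could have given. For Adam17 the same kind of estimate moved between libraries of 1 group: its protein-coding transcripts took 26.3%, 98.4% and 28.8% of counts in KO 2, KO 9 and KO 22, against 85.4%, 15.95% and 35.8% in WT 1, WT 2 and WT 3.

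**Figure D4:**
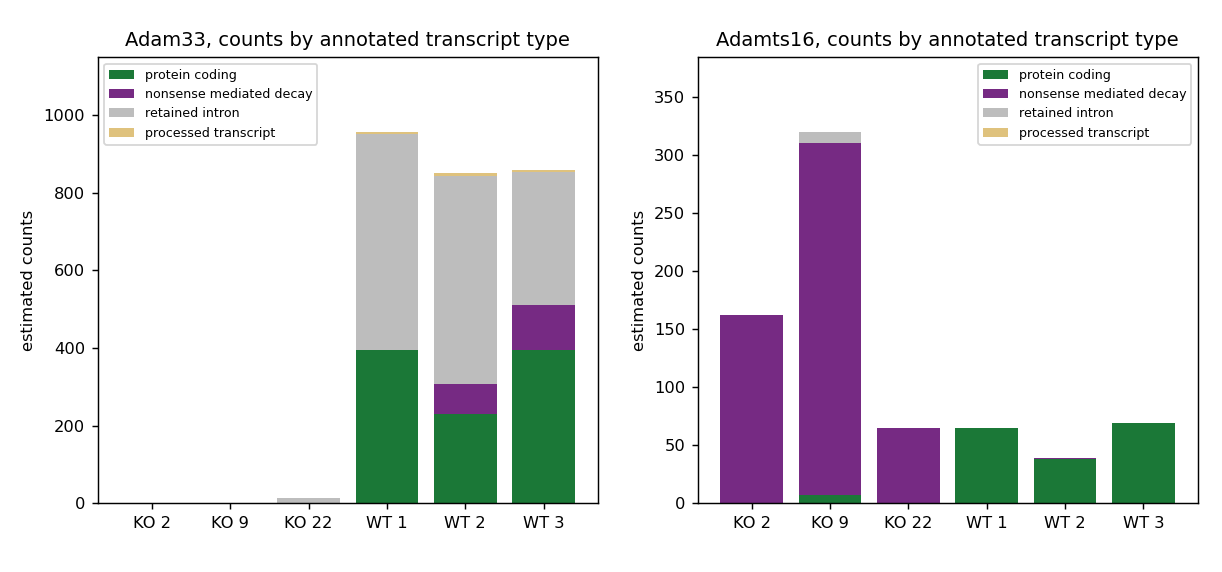
Estimated counts of Adam33 and Adamts16 in each library, stacked by the annotated type of transcript, with the 3 KO lines left of the 3 WT libraries. Adam33 has 2, 2 and 13 counts in KO lines, none on a protein-coding transcript, and Adamts16 is almost entirely on a transcript annotated as nonsense-mediated decay in KO lines and on a protein-coding one in WT libraries.

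Among the somatic ADAMs with an active site, the group that holds the sheddases, Adam19 rose, Adam33 fell, and Adam9, Adam10, Adam15, Adam17, Adam12 and Adam8 did not pass the test. The most abundant per length was Adam9, with 33.2, 45.0 and 44.8 CPM per kb in KO 2, KO 9 and KO 22, against 37.3, 41.7 and 39.3 CPM per kb in WT libraries. Adam10, the principal Notch sheddase, had 17.03, 24.0 and 25.0 CPM per kb in KO 2, KO 9 and KO 22, against 16.7, 18.02 and 18.7 CPM per kb in WT libraries. In both genes the groups overlapped, and the log2 fold changes were 0.09 for Adam9 (SE 0.14; -0.10 with chromosome medians subtracted) and 0.34 for Adam10 (SE 0.16; edgeR adjusted p = 0.249). Without KO 2, Adam10 was called at a log2 fold change of 0.50 (adjusted p = 0.0298).

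Adam15, widely expressed and able to bind integrins, had the steadiest total level of the family. It had 14.6, 14.5 and 13.8 CPM per kb in KO 2, KO 9 and KO 22, against 14.9, 13.9 and 14.1 CPM per kb in WT libraries (log2 fold change 0.03, SE 0.08). Its estimated transcripts were less steady. Protein-coding ones took 55.8%, 67.3% and 13.9% of its counts in KO 2, KO 9 and KO 22, against 59.7%, 51.8% and 63.7% in WT 1, WT 2 and WT 3. Adam17, the sheddase of tumour necrosis factor, had 50.9, 40.5 and 26.3 CPM in KO 2, KO 9 and KO 22, against 43.1, 48.3 and 47.0 CPM in WT libraries. Adam12, known from muscle and connective tissue, had 52.7, 36.6 and 21.3 CPM in KO 2, KO 9 and KO 22, against 42.2, 33.6 and 39.3 CPM in WT libraries. Adam8, best known from leukocytes and osteoclasts, had 15.5, 7.42 and 1.91 CPM in the same KO lines, against 8.83, 8.21 and 8.86 CPM in WT libraries. In Adam17, Adam12 and Adam8, KO 2 had the highest value and KO 22 the lowest of all 6 libraries. Of the 13 described ADAMTS genes, KO 22 had the highest value of all 6 libraries for Adamts1, Adamts12, Adamts10, Adamts17, Adamts20 and Adamts9.

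Adam19 (ENSMUSG00000011256, chr11:46055992-46147343), a sheddase of neuregulin needed for heart valve formation in mice, rose by a small and even step. It had 81.9, 80.8 and 87.2 CPM in KO 2, KO 9 and KO 22, against 64.7, 56.7 and 62.1 CPM in WT 1, WT 2 and WT 3. The groups did not overlap, with means of 83.3 ± 3.42 CPM in KO lines and 61.1 ± 4.09 CPM in WT libraries (SD, n = 3 each; log2 fold change 0.48, SE 0.10, edgeR adjusted p = 0.0410). The call was lost when genes with low counts were not removed (adjusted p = 0.0766), in limma-voom (0.0643), once chromosome medians were subtracted (0.0507) and without WT 1, WT 2 or WT 3 (0.157, 0.187 and 0.191).

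Adam33 (ENSMUSG00000027318, chr2:131050591-131063814), whose human gene is linked to asthma and which is made by mesenchymal cells, was close to absent in the KO lines. It had 2, 2 and 13 counts in KO 2, KO 9 and KO 22, against 957, 850 and 859 counts in WT 1, WT 2 and WT 3. The mean was 0.0926 ± 0.104 CPM in KO lines and 14.5 ± 1.02 CPM in WT libraries (SD, n = 3 each; log2 fold change -7.22, SE 0.65, edgeR adjusted p = 0.00508). KO 22 had the most counts of the 3 lines and still lay far below the WT libraries. The call was lost without WT 1 (adjusted p = 0.0533) or WT 2 (0.0507), with log2 fold changes of -7.16 and -7.26. In WT libraries 41.3%, 27.2% and 46.0% of the counts were on protein-coding transcripts and most others on retained-intron ones, while no KO line had a count on a protein-coding transcript.

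The genes around Adam33 did not share its loss. Of these 10 neighbours, Spef1 rose (log2 fold change 1.08, SE 0.21, edgeR adjusted p = 0.0359) and the other 9 did not pass the test. Atrn, the coding neighbour beyond Gfra4, had means of 34.7 CPM in KO lines and 36.8 CPM in WT libraries, and Cenpb, on the other side, 235 CPM in KO lines and 258 CPM in WT libraries. The lowest value among these neighbours was the -1.003 of Hspa12b (SE 0.29, adjusted p = 0.0869).

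Allele-assigned counts add that Adam33 was read from genome 1 only in both groups. All 17 such counts in KO lines and all 2131 in WT libraries were genome 1, which allows a genome 2 share of up to 17.6% in KO lines and 0.141% in WT libraries, for counting error only. The strain behind genome 1 is not stated. The neighbours were alike, with a genome 1 share of at least 99.3% in both groups for all 10 but A730017L22Rik (89.6% in KO lines and 71.2% in WT libraries). In the 10 Mb interval of chromosome 2 that holds Adam33, genome 1 made up 90.6% of assigned counts in KO lines and 90.8% in WT libraries, and 37 of 53 genes with at least 100 WT allele counts were at 90% or more in WT libraries. In the next interval toward the chromosome end it was 51.1% in KO lines and 52.6% in WT libraries, with 1 of 29 genes at 90% or more. With no genome 2 counts of Adam33 in either group, its parental copies could not be compared.

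The ADAMs without an active site, known from the nervous system, were low. Adam11 had 58, 99 and 91 counts in KO 2, KO 9 and KO 22, against 35, 40 and 19 counts in WT libraries. Adam22 had 42, 52 and 32 counts in the same KO lines, against 18, 23 and 23 counts in WT libraries. In both genes each KO line lay above each WT library, but neither passed the test (edgeR adjusted p = 0.0718 for Adam11 and 0.0894 for Adam22; Adam11 was called by DESeq2 at 0.0185). Adam23 had 0 counts in KO lines and 7 in WT libraries.

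The largest role group by number was the ADAMs known from germ cells and the reproductive tract, and it was mostly silent. Of its 22 genes 14 were at 0 in all 6 libraries and 3 were described. Chromosome 8 alone carries 15 of the 58 family genes, of which 10 were at 0 and Adam9 was the 1 described. Adam1a, which encodes fertilin alpha, was the highest of the group at 3.14 ± 1.15 CPM in KO lines and 4.13 ± 0.317 CPM in WT libraries (SD, n = 3 each). It did not pass over the 3 lines (edgeR adjusted p = 0.480) and was called at -0.72 without KO 22 (adjusted p = 0.0459). Adam1b, a close copy 15.1 kb away, was at 0.664 ± 0.313 CPM in KO lines and 0.728 ± 0.154 CPM in WT libraries, and reads of these copies may be shared. On the same strand in the annotation, Adam1a also overlaps Mapkapk5 and Gm42878, and Adam4 overlaps Cox16 and Gm20498. The low counts of Adam1a and Adam4 may therefore include reads of those genes. Gm42878, which lies inside Adam1a, had 9152 counts over the 6 libraries. Adam5, below the 0.5 CPM level, had 14, 49 and 41 counts in KO 2, KO 9 and KO 22, against 2, 11 and 5 counts in WT libraries.

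Of the ADAMTS-like genes, which encode matrix proteins tied to fibrillin microfibrils, 3 of 5 were described and none passed the test. Adamtsl3 had 14.3, 13.6 and 19.5 CPM per kb in KO 2, KO 9 and KO 22, against 10.4, 10.5 and 10.2 CPM per kb in WT libraries. The groups did not overlap, and the log2 fold change of 0.64 (SE 0.16) missed the threshold (edgeR adjusted p = 0.0629). Adamtsl3 was called by DESeq2 (adjusted p = 0.00495), by limma-voom (0.0375) and by edgeR without KO 22 (0.0199). Adamtsl4, whose human gene is mutated in ectopia lentis, had 12.9, 7.94 and 16.1 CPM per kb in KO 2, KO 9 and KO 22, against 15.0, 15.98 and 15.5 CPM per kb in WT libraries. Adamtsl5 had means of 29.5 ± 11.2 CPM in KO lines and 41.6 ± 0.582 CPM in WT libraries (SD, n = 3 each). For Adamtsl5, KO 2, at 42.4 CPM, was slightly above the WT libraries at 41.1 to 42.2 CPM, and KO 9 and KO 22 were at 22.8 and 23.2 CPM, and without KO 2 the gene was called at -0.81 (edgeR adjusted p = 0.0135).

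Inhibitors, activators and substrates of the proteases were read from lists of genes known for these parts, against a median log2 fold change of 0.02 over all tested genes. Counts at an unadjusted p under 0.05, and those of DESeq2 and limma-voom, are given for these lists without a share over all tested genes to set them against. DESeq2 also called more genes than edgeR over the whole table, so more DESeq2 calls are not particular to a list. Of 4 tested inhibitor genes (the TIMPs and Reck), Timp3 fell and 3 did not pass. Timp3, which inhibits ADAM17 and the aggrecanases, had 585, 585 and 534 CPM in KO 2, KO 9 and KO 22, against 1025, 1017 and 1033 CPM in WT libraries. The groups were far apart (log2 fold change -0.82, SE 0.07, edgeR adjusted p = 0.00508), while the list's median was -0.02. Of 8 tested partners of ADAM10 and ADAM17 (tetraspanins of the TspanC8 group, the iRhoms and Frmd8), 0 passed in edgeR, with 3 at an unadjusted p under 0.05, 2 called by DESeq2 and 2 by limma-voom. Of 3 tested proprotein convertases, the furin-like enzymes that cut the prodomain off, 0 passed in edgeR, with 1 at an unadjusted p under 0.05, 1 called by DESeq2 and 0 by limma-voom.

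Of 27 tested substrates of shedding, App rose and Cxcl16 fell, near the 6.73% called over all genes, and the list's median log2 fold change was -0.14. At an unadjusted p under 0.05 there were 12, DESeq2 called 8 and limma-voom 4. These counts, like those of the next list, have no share over all genes beside them. App, the amyloid precursor protein, had 668, 886 and 864 CPM in KO 2, KO 9 and KO 22, against 454, 499 and 474 CPM in WT libraries. Cxcl16 was low, at 0.180 ± 0.0429 CPM in KO lines and 0.669 ± 0.109 CPM in WT libraries (SD, n = 3 each; log2 fold change -1.86, SE 0.32, edgeR adjusted p = 0.0278). Of 18 tested matrix substrates of the ADAMTS enzymes, 4 rose and 1 fell, where 3.54% of all genes rose and 3.19% fell, and the median was 0.54. At an unadjusted p under 0.05 there were 9, DESeq2 called 9 and limma-voom 7. The type I procollagen genes, substrates of ADAMTS2, were among those that rose. Col1a1 had 11533, 14065 and 15827 CPM in KO 2, KO 9 and KO 22, against 7383, 7449 and 7390.3 CPM in WT libraries (log2 fold change 0.93, SE 0.13, edgeR adjusted p = 0.0175). Col1a2 rose by 1.25 (SE 0.15, adjusted p = 0.0104) and Bgn, which encodes biglycan, by 1.12 (SE 0.20, adjusted p = 0.0306) on the same scale. Col3a1, named after its value was seen to complete the count, rose by 1.10 (SE 0.22, adjusted p = 0.0408). Thbs2, thrombospondin 2, had 95.9, 146 and 170.3 CPM in KO 2, KO 9 and KO 22, against 394, 376 and 384 CPM in WT libraries (log2 fold change -1.45, SE 0.22, adjusted p = 0.0194). The collagens are also fibroblast markers and made up most of the marker sum given above. Leaving out WT 1, WT 2 or WT 3 left 0 of the listed genes called, against 8 with all 6 libraries.

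The hybrid background allows the parental copies to be compared. The genome 1 share of allele-assigned counts was tested for the 26 described genes with a mean of at least 20 such counts per library, by edgeR's quasi-likelihood test of the allele by group term, with every library as its own block. It differed between KO lines and WT libraries for 11 of them, higher in KO for 6 and lower for 5, where 23.1% of all 12952 genes tested did so. Of the 11, 10 differed in the same direction as the rest of their chromosome, and Adamts16 was the exception. The same count was not made over all genes called, so it cannot be called particular to these members. When the share of the rest of the chromosome in the same library was taken out, 0 of the 26 passed in edgeR, with 4 at an unadjusted p under 0.05 (Adamts2, Adam19, Adamts16 and Adamts9). The share of all genes at that unadjusted level was not taken for this fit. In the fit without that step, 16 of the 26 and 4489 of all 12952 genes were at that level. Adam12 was the 1 call of the 11 that held without each library in turn, and leaving out WT 1, WT 2 or WT 3 left 3, 3 and 2 calls. Without KO 9, Adamts12, Adamts2, Adam19, Adamts17, Adam10 and Adam9 passed (adjusted p from 0.00860 to 0.0409). Among the 11 called genes, except for Adam8, Adamts16 and Adamts9, the 95% Wilson interval of a gene's share in 1 library was at most 4.26 percentage points to either side, for counting error only.

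**Figure D5:**
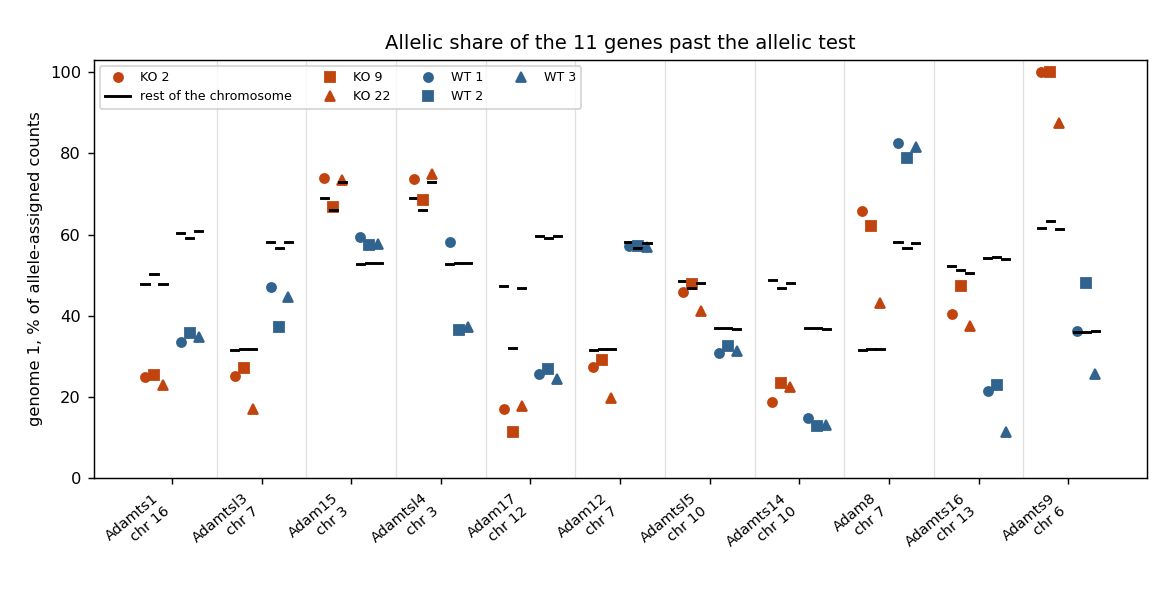
Genome 1 share of allele-assigned counts for the 11 genes past the allelic test, with the 3 KO lines (orange) left of the 3 WT libraries (blue) for each gene. Black ticks give the share over the rest of the gene's chromosome in the same library. In most genes the points of KO and WT are displaced in the same direction as their ticks.

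On chromosome 7 the rest of the chromosome was at 31.6% to 31.9% genome 1 in the KO lines and 56.7% to 58.2% in the WT libraries, and its 4 described genes were all lower in KO lines by their mean. Adam12 was at 27.4%, 29.05% and 19.8% in KO 2, KO 9 and KO 22, against 57.3%, 57.3% and 56.8% in WT libraries (log2 allelic ratio -1.98, SE 0.25, edgeR adjusted p = 0.00315). Adamtsl3 was at 25.2%, 27.1% and 17.1% in the KO lines, against 47.2%, 37.2% and 44.5% in WT libraries. Adam8 was at 65.8%, 62.0% and 43.2% in the KO lines, against 82.5%, 78.7% and 81.4% in WT libraries. The Adamtsl3 call was lost without WT 1 (adjusted p = 0.0820) or WT 3 (0.0814), and that of Adam8 without WT 1, WT 2 or WT 3 (0.1104, 0.0852 and 0.105). Adam12 lay between 11.9 points below and 0.58 points above its chromosome, while Adam8 stayed at least 11.5 percentage points above it and Adamtsl3 lay below it in all 6 libraries. For Adam12, Adamtsl3 and Adam8 alike the lowest share was that of KO 22. Adamts17 did not pass, at 24.9% ± 9.44 in KO lines and 36.5% ± 5.50 in WT libraries (SD, n = 3 each).

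On chromosome 3, where KO lines had the higher genome 1 share (69.3% ± 3.53 in KO lines and 52.9% ± 0.220 in WT libraries for the whole chromosome), both described genes passed. Adam15 was at 73.9%, 66.7% and 73.5% in KO 2, KO 9 and KO 22, against 59.4%, 57.5% and 57.8% in WT libraries. Its total level had a log2 fold change of 0.03 (SE 0.08), so the share differed where the total did not pass the test. The allelic call was lost without KO 2 (adjusted p = 0.0546), KO 22 (0.0563), WT 1 (0.0753), WT 2 (0.0911) or WT 3 (0.0898). Adamtsl4 was at 73.8%, 68.6% and 75.0% in the KO lines, against 58.3%, 36.5% and 37.2% in WT libraries. WT 1 differed from the other WT libraries by over 20 points at this gene, and the call was lost without KO 2 (adjusted p = 0.0631), KO 22 (0.0634), WT 2 (0.0855) or WT 3 (0.0877).

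On chromosome 10, Adamtsl5 was at 45.8%, 47.7% and 41.2% in KO 2, KO 9 and KO 22, against 30.9%, 32.5% and 31.4% in WT libraries. Adamts14, its partner on that chromosome, was at 18.9%, 23.4% and 22.5% in the KO lines, against 15.0%, 12.8% and 13.1% in WT libraries. Both were higher in each KO line than in any WT library, and Adamts14 lay 22.1 to 29.8 points below its chromosome throughout. The Adamtsl5 call was lost without KO 2 (adjusted p = 0.0584) or WT 1, WT 2 or WT 3 (0.0948, 0.0859 and 0.0941), and that of Adamts14 without KO 22 (0.0658) or WT 1, WT 2 or WT 3 (0.0689, 0.113 and 0.108).

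On chromosome 16 Adamts1 was at 24.9%, 25.5% and 23.0% in KO 2, KO 9 and KO 22, against 33.5%, 35.7% and 34.9% in WT libraries (log2 allelic ratio -0.72, SE 0.12, edgeR adjusted p = 0.00834). Its shares did not overlap between groups and lay 23.1 to 27.0 points below the chromosome in all 6 libraries. Without WT 2 the call was lost (adjusted p = 0.0505). Its neighbour Adamts5 did not pass (adjusted p = 0.0778, and 0.00778 without KO 22), at 48.0%, 47.1% and 62.6% in the KO lines, against 64.4%, 68.0% and 66.8% in WT libraries. Both copies of Adamts1 and Adamts5 were thus read in KO lines and in WT libraries.

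Adam17, on chromosome 12, was at 17.1%, 11.5% and 17.9% in KO 2, KO 9 and KO 22, against 25.8%, 26.8% and 24.5% in WT libraries. In all 6 libraries it lay far below its chromosome, which was at 32.2% to 47.3% in KO lines and 59.3% to 59.7% in WT libraries. The call was lost in limma (adjusted p = 0.0519) and without KO 2 (0.0573), WT 1 (0.123), WT 2 (0.136) or WT 3 (0.109). Adamts16, on chromosome 13, rested on 13 to 173 allele counts per library. It was at 40.4%, 47.4% and 37.5% in KO 2, KO 9 and KO 22, against 21.6%, 23.1% and 11.4% in WT libraries, with Wilson intervals of up to 21.0 points to either side. Its chromosome was at 51.3% ± 0.887 in KO lines and 54.3% ± 0.223 in WT libraries (SD, n = 3 each), and its call was lost without any 1 of the 6 libraries (adjusted p from 0.0658 to 0.153). Adamts9, on chromosome 6, had genome 1 for 10 of 10, 2 of 2 and 69 of 79 allele counts in KO 2, KO 9 and KO 22, against 24 of 66, 26 of 54 and 16 of 62 in WT libraries. Leaving out WT 1 (adjusted p = 0.0657) or WT 3 (0.0641) ended the call. Its nearest tested neighbours with a mean of at least 20 allele counts per library were Prickle2 and Magi1. Prickle2 was at 84.9% genome 1 in KO lines and 44.0% in WT libraries, and Magi1 at 53.3% in KO lines and 30.2% in WT libraries.

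The allelic shares of the members were also set against the rest of their chromosome. Of the 20 described genes with at least 20 allele counts in each library, 7 lay below their chromosome in all 6 libraries, 5 lay above it in all 6 and 8 were mixed. No such count was made over all genes, so a lean cannot be called particular to these members. Some distances were small, down to 0.51 points for Adam10 in WT 3 and 0.48 for Adam15 in KO 22. Both lay within the Wilson interval of the gene's share. Adam17, Adamts1, Adamts14 and Adamts7 lay at least 16.1 points below it in every library, and Adam8 at least 11.5 points above it. Adamts4 had no allele-assigned count although it was well covered, which was true of 68 of 9924 genes (0.685%) with a mean of at least 500 split counts.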

How the data were processed

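PolyA RNA of TTF cells was sequenced, per the labels' protocols. The deposited files hold the authors' estimated counts for genes and transcripts, and for genes also those of reads assigned to genome 1 or genome 2. HISAT2 2.1.0 and StringTie 1.3.3 are listed, without roles, in the submitters' processing notes, and neither the annotation nor the strand setting is stated. Columns were matched to samples by name. All 58 genes matched GENCODE M21 (GRCm38), the source of exon lengths and coordinates.

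Groups were compared with edgeR 4.0.16 (R 4.3.3; TMM scaling, its default filter, quasi-likelihood test) over 16678 genes with Benjamini-Hochberg adjustment across all of them. SE is the absolute log2 fold change over the root of F. Allelic ratios were fitted over 12952 genes. On simulated counts modelled on these libraries, the total-count test recovered 35% of 2-fold and 66% of 4-fold changes, with 2 false calls among 16188 unchanged genes. The allelic test recovered 2% of 2-fold and 33% of 4-fold changes in the ratio, with 0 false calls among 12752. In both simulations few genes changed, each independently of its chromosome, and each gene had the same spread in both groups. The real libraries differ from that, so these recovered shares and false calls may not hold for them. A gene that did not pass a test may still differ. Alternatives were DESeq2 1.42.0 and its size factors, limma 3.58.1, other minimums, chromosome offsets and left-out libraries. Members, lists and tests were chosen with earlier results of these data known. Genes past a test and the 6 most abundant per length are given per library, and others by role. Chi-square per degree of freedom between libraries was at least 23.5, so none were duplicates within sampling noise.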

Additional observations from a re-analysis of the deposited data

How the results depend on the processing

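Replacing TMM by DESeq2's size factors left 4 members higher, 1 lower and 1109 of all genes called, against 1123. Without a filter on low counts 396 of all genes, 2 members (higher in KO) and 4 partner genes were called, and DESeq2 called 2908, 9 and 21. Limma-voom called 14 partner genes, against 8, and taking out chromosome medians left 2 members higher in KO. Leaving out 1 library at a time gave 45 to 2482 of all genes, 1 to 8 members higher, 0 to 4 lower, 0 to 20 partner genes and 2 to 16 members with a changed allelic ratio, against 11. Taking out the chromosome share left 0 members and 68 of all genes with a changed allelic ratio. A minimum of 1 CPM described 25 genes. The alternatives for partner genes were chosen after seeing the data. No cause was tested.

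Some log2 fold changes that did not pass the test changed sign. In limma-voom Adamts20 was at -3.62. With chromosome medians taken out, Adam9 was at -0.10, Adam12 at 0.020, Adamts14 at -0.11 and Adam8 at 0.0095. With 1 library left out, the ranges were -0.37 to 0.23 for Adam12, -0.18 to 0.26 for Adamts14, -0.13 to 0.72 for Adamts10, -0.85 to 0.42 for Adam8, -6.36 to 0.80 for Adamts20 and -0.56 to 0.16 for Adam1b.

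The log2 allelic ratio of Adamts20 was 1.70 by limma. With the chromosome share taken out it was 0.070 for Adam9, 0.20 for Adamtsl3, -0.16 for Adam15, 0.076 for Adamts12, 0.35 for Adam19, 0.084 for Adam17, -0.28 for Adamts7, 0.18 for Adamts10 and 0.66 for Adamts17, each of the opposite sign. With 1 library left out, the ranges were -0.42 to 0.56 for Adam19, -0.18 to 0.27 for Adamts6, -0.99 to 0.12 for Adam1a, -2.11 to 0.57 for Adamts20, -0.017 to 1.76 for Adam11 and -0.31 to 1.22 for Adam22.

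No paired analysis was possible because the KO columns are numbered 2, 9 and 22 and the WT columns 1, 2 and 3, so the groups share 1 number. Depth limits Adam33, Adamts9 and Adamts20, which had 2 counts or fewer in some KO lines, and the allelic shares of Adamts9 and Adamts16.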
